A study of Mus musculus with 4 samples.

Results

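E2f1, Srf, Foxk1, Aurka, Peg10, Egfr, Eef2, Btrc and Myc are transcripts that work on the RNA-binding protein Igf2bp1 has reported as its targets. These 9 of the 29835 genes in the deposited matrices were chosen by name. The rule used no measured value, but earlier results of these data were known when it was made. All 9 are listed in each of the 4 libraries. Their level was measured in tumour cells from the malignant ascites of mice, in cycling and non-cycling tumour cells apart, with and without BTYNB, a small molecule that hinders the binding of Igf2bp1 to RNA. Of the 9 transcripts, 8 had a UMI (unique molecular identifier, 1 counted RNA molecule) in the tumour cells of every library, while Peg10 was at or near 0.

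The mice were C57BL/6 females, six-week-old per the methods, that carried intraperitoneal ID8-Trp53-/- cells, a mouse ovarian surface epithelial line with both copies of Trp53 disrupted. The DMSO group received DMSO and an IgG2a isotype antibody, and the BTYNB group received BTYNB and the same isotype antibody. The PD1 group received DMSO and the anti-PD-1 antibody RMP1-14, and the Combi group received BTYNB and RMP1-14. The labels state doses of 50 mg/kg for BTYNB and of 100 ng for either antibody, from day 7 after injection until ascites had reached about 3 mL. The published methods give other amounts, and the difference was not settled. Every group thus carried the Trp53-deficient tumour cells and received an antibody, and all tumours came from 1 engineered line. Cells of all animals of a treatment were pooled into 1 library, which leaves no spread between animals. Differences below are between single libraries, no test was possible, and the 95% intervals cover counting error only.

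Tumour cells were gated as cells with at least 5 UMIs of Krt7, Krt8, Krt18, Krt19 and Wt1 together, 0 UMIs of the leukocyte gene Ptprc and no fewer UMIs in all than the shallowest deposited cell of the Combi library. This gate held 6829 cells in DMSO, 2812 in BTYNB, 8782 in PD1 and 4369 in Combi, with between 55707522 and 73607707 UMIs per library. The median gated cell had 9987 UMIs in DMSO, 18310.5 in BTYNB, 7870 in PD1 and 11503 in Combi, so the cells of the BTYNB library were the deepest. Markers of myeloid cells summed to 27.1 to 77.8 CPM (UMIs of a gene per 1000000 UMIs of the cells summed) in the gated cells, against 8126 to 14973 CPM in myeloid-gated cells of the same libraries. Mesothelial markers (Msln, Upk3b, Lrrn4 and Upk1b) summed to between 726 and 997 CPM, and fibroblast markers to between 247 and 418 CPM. ID8 cells share these programmes with host lining cells, and the gate does not separate the tumour line from such cells. Between any 2 libraries, 0 to 4 cell barcodes were the same.

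Cells were called cycling with at least 3 UMIs of Mki67, Top2a and Ube2c together and non-cycling with 0. Cycling cells made up 40.0% of tumour-gated cells in DMSO, 32.2% in BTYNB, 42.8% in PD1 and 37.7% in Combi, and non-cycling cells 36.3%, 51.6%, 33.7% and 38.3%. A deeper cell passes such a limit more easily. After each cell had been thinned to that minimum, the cycling share was 30.3% in DMSO, 21.0% in BTYNB, 36.1% in PD1 and 26.8% in Combi. Both libraries from BTYNB-treated animals thus held fewer cycling tumour cells than the library they are compared with, at equal depth as well.

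Igf2bp1 is an oncofetal RNA-binding protein that is abundant in the embryo, silent in most adult tissues and expressed again in many carcinomas. The protein binds its targets at elements within the mRNA and is reported to shield them from decay, including decay directed by microRNAs. Its reported targets fall into groups with different tasks. E2f1 encodes the transcription factor that opens S phase, and Aurka a kinase of the mitotic spindle. Srf, Foxk1 and Myc encode transcription factors of the cytoskeleton and the early growth response, of metabolism, and of growth and ribosome production. Egfr encodes a growth factor receptor, Eef2 the factor that moves the ribosome along the mRNA, Btrc a substrate receptor of the SCF ubiquitin ligase, and Peg10 a protein derived from a retrotransposon that is expressed from the paternal allele.

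Sequence upstream of the start was available from RefSeq for 5 of the 9 genes, as windows of 300 bases on the build GRCm38.p6, while the counts were made on GRCm39. The bases before the start of Srf are shown because they hold elements through which the serum response is known to act. Those of Aurka are shown for their CCAAT boxes, while its CHR element, described below, lies after the start and outside the stretch shown. The level of Aurka followed the cycle in these data and that of Srf hardly did. Both genes lie on the minus strand. Capitals mark CCAAT boxes in both sequences (bound by NF-Y) and, in Srf, 2 CArG boxes (CC, 6 letters of A or T, GG, the element bound by SRF itself).
Srf, chr17:46556163-46556412: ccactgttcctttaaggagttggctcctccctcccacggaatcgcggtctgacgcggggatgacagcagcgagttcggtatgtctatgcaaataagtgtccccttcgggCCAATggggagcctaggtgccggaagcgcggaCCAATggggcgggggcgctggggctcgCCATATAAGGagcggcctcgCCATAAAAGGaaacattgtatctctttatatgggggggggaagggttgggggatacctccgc
Aurka, chr2:172370571-172370820: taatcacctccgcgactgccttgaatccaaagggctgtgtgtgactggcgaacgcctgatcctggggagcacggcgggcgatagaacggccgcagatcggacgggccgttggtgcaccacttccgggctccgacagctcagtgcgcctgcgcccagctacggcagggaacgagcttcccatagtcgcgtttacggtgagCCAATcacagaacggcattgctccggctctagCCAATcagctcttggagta
In Srf the CArG boxes lay 82 to 73 and 62 to 53 bases before the start, and the CCAAT boxes 141 to 137 and 109 to 105 bases before it. At least 2 CArG boxes were found in the windows of 5 of 27025 genes (0.0185%), and at least 1 in 488 genes (1.81%). In Aurka the CCAAT boxes lay 51 to 47 and 19 to 15 bases before the start, and the letters TTTGAA, the CHR element of genes that are switched on late in the cycle, began 33 bases after it. A CCAAT box was present in the windows of 41.1% of all genes and TTTGAA in 20.2%, both strands counted. A match of letters is a description of the window and not evidence of binding.

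Across the tumour-gated cells, E2f1 and Aurka were lower beyond counting error in both libraries from BTYNB-treated animals, and Btrc was higher in both. Srf and Foxk1 were lower only in the contrast without the antibody, and Myc was higher mainly in the contrast with it. Egfr and Eef2 stayed within the limit used for counting in both, apart from Eef2 with median-of-ratios scaling (-0.35 for Combi over PD1). A member is counted below as lower or higher where its log2 ratio lay beyond 0.32 in size. Of 8 members measured, 4 were lower by this limit in BTYNB than in DMSO (E2f1, Srf, Foxk1 and Aurka), where 13.1% of the 10286 genes tested were, and 1 was higher (Btrc), where 12.9% of all genes were. The 4 became 2 with a gate of 10 UMIs, 2 after thinning and 1 when the cycling classes were weighted equally. In Combi against PD1, 1 was lower (Aurka) against 12.5% of all genes and 1 higher (Myc) against 19.8%. The median log2 ratio of the members was -0.22 for BTYNB over DMSO and 0.16 for Combi over PD1, and that of all genes -0.01 and 0.06. The 8 measured transcripts thus differed in direction. Those below 0 beyond counting error in both contrasts were the cell cycle genes E2f1 and Aurka. By the limit only Aurka was lower in both, as E2f1 lay within it in Combi against PD1 (-0.30). E2f1 passed the limit there without the 5% of cells with most UMIs (-0.41).

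**Figure D1:**
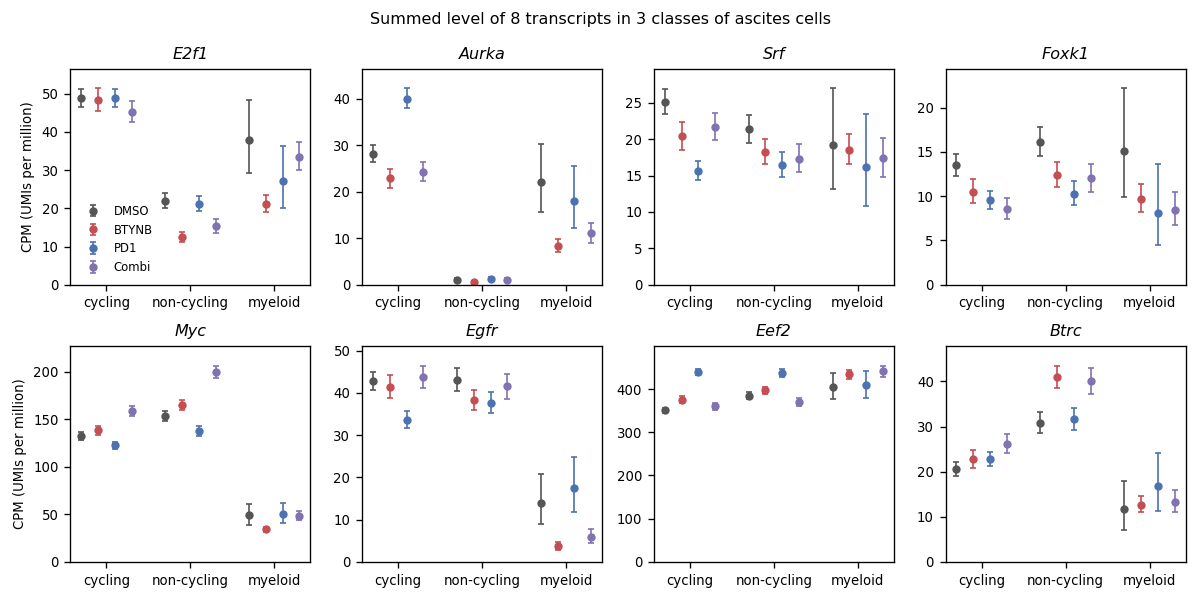
Level in CPM (vertical axes from 0) of the 8 transcripts with a measurable level in cycling tumour-gated, non-cycling tumour-gated and myeloid-gated cells of each library, with exact 95% Poisson intervals for counting error. Aurka lies between 0.482 and 1.21 CPM in non-cycling cells and between 22.8 and 40.0 CPM in cycling cells, E2f1 in cycling cells lies between 45.3 and 48.9 CPM in all 4 libraries, and Eef2 is near the same level in all classes.

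E2f1 stood at 36.1 CPM in DMSO, 28.1 in BTYNB, 37.5 in PD1 and 30.4 in Combi over all tumour-gated cells. Both libraries with BTYNB lay below both libraries without it. BTYNB over DMSO had a log2 ratio of -0.36 (-0.45 to -0.27) and Combi over PD1 one of -0.30 (-0.39 to -0.21). When non-cycling, intermediate and cycling cells were given the same weights in every library, the first of these ratios was -0.26 and within the limit, as it was after thinning (-0.32, just inside). The second ranged from -0.41 without the 5% of cells with most UMIs to -0.19 without cells with at least 2 UMIs of Cd24a.

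E2f1 differed more in the non-cycling than in the cycling cells. In cycling cells its level was 48.7 CPM in DMSO, 48.4 in BTYNB, 48.9 in PD1 and 45.3 in Combi, with log2 ratios of -0.01 (-0.12 to 0.10) and -0.11 (-0.22 to -0.00). In non-cycling cells it was 21.9 CPM in DMSO, 12.4 in BTYNB, 21.2 in PD1 and 15.3 in Combi. Here the log2 ratio was -0.82 (-1.03 to -0.61) for BTYNB over DMSO and -0.46 (-0.68 to -0.25) for Combi over PD1. A cell with 0 cycle UMIs is more surely out of the cycle when it is deep, and non-cycling BTYNB cells had a median of 16412 UMIs against 8647.5 in DMSO. After thinning to the minimum depth the level in non-cycling cells was 22.9 CPM in DMSO, 14.4 in BTYNB, 25.1 in PD1 and 17.0 in Combi, with ratios of -0.66 and -0.56. In cycling cells thinning gave 41.4 CPM in DMSO and 51.2 in BTYNB, a ratio of 0.31, so the absence of a difference in cycling cells depends on the depth at which they are called.

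Aurka was at 13.8 CPM in DMSO, 9.46 in BTYNB, 19.9 in PD1 and 11.1 in Combi. The PD1 library stood highest and the libraries with BTYNB lowest. The log2 ratio was -0.55 (-0.70 to -0.39) for BTYNB over DMSO and -0.84 (-0.98 to -0.70) for Combi over PD1, a fold of 0.684 and 0.559, and PD1 over DMSO was 0.53 (0.41 to 0.64). With equal weights of the cycling classes the first ratio was -0.31 and within the limit. Among cycling cells Aurka was 28.1 CPM in DMSO, 22.8 in BTYNB, 40.0 in PD1 and 24.3 in Combi. The log2 ratio of BTYNB over DMSO there was -0.30 (-0.46 to -0.14) and turned to 0.04 after thinning, whereas Combi over PD1 was -0.72 (-0.86 to -0.58) and became -0.45. Non-cycling cells held 23, 12, 27 and 17 Aurka UMIs in DMSO, BTYNB, PD1 and Combi. That is 1.001, 0.482, 1.21 and 0.915 CPM, too low for the limit of 5 CPM set for a comparison.

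**Figure D2:**
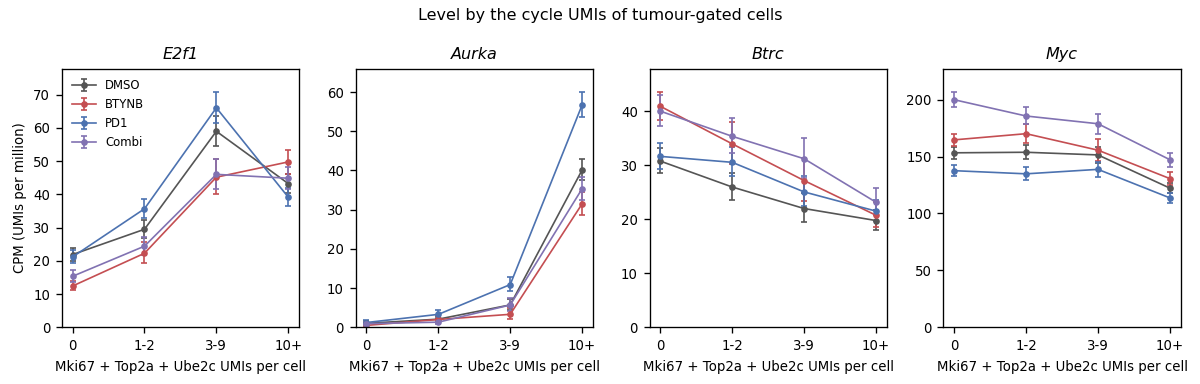
Level in CPM (vertical axes from 0, with exact 95% Poisson intervals) of E2f1, Aurka, Btrc and Myc in tumour-gated cells with 0, 1 to 2, 3 to 9 and 10 or more UMIs of Mki67, Top2a and Ube2c, 1 line per library. Aurka is steepest between 3 to 9 and 10 or more cycle UMIs, E2f1 is highest at 3 to 9 in DMSO and PD1, and Btrc is lower at 10 or more than at 0 in every library.

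E2f1 and Aurka followed the cycle differently. Aurka in PD1 was 1.21 CPM at 0 cycle UMIs, 3.29 at 1 to 2, 10.9 at 3 to 9 and 56.7 at 10 or more. E2f1 in the same library was 21.2, 35.7, 66.1 and 39.2 CPM, with its highest level in the intermediate cells. In DMSO E2f1 was likewise highest at 3 to 9 cycle UMIs (59.0 CPM against 43.3 at 10 or more). In BTYNB (45.2 against 49.8 CPM) and Combi (46.0 against 44.9 CPM) its level did not drop beyond the intervals between these steps. E2f1 is transcribed before DNA replication and Aurka around mitosis, and the marker Ube2c is itself a mitotic gene.

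Genes that E2F factors switch on for S phase were lower together with E2f1. Of 24 such genes, 18 were lower in BTYNB than in DMSO and 0 were higher, where 13.1% and 12.9% of all genes were, with a median log2 ratio of -0.45. In Combi against PD1, 9 were lower and 1 was higher, where 12.5% and 19.8% of all genes were, with a median of -0.17. These shares of all genes in tumour-gated cells apply to the counts of each list below. Cdk1, the kinase that drives entry into mitosis, was 136 CPM in DMSO, 85.8 in BTYNB, 217 in PD1 and 117 in Combi. Ccne2, a cyclin of the start of S phase, was 11.0, 6.16, 10.9 and 7.09 CPM. Within cycling cells 9 of the 24 were lower in BTYNB than in DMSO (median -0.16, against 12.6% of all genes), and within non-cycling cells 21 of 22 measured (median -0.73, against 13.8%). BTYNB cells were deeper than DMSO cells in both classes (medians of 23259 against 11963 UMIs in cycling and 16412 against 8647.5 in non-cycling cells). Combi cells were deeper than PD1 cells as well. The lists were not measured after thinning, so the part of depth in these counts was not tested. In Combi against PD1, 7 were lower and 1 higher in cycling cells (median 0.02, against 13.7% and 18.9%). In non-cycling cells of that contrast 11 of 22 were lower and 1 higher (median -0.35, against 12.6% and 21.4%). An E2F element (TTT, 2 letters of C or G, CG and a letter of C or G) was found in the windows of 9 of 19 of these genes (47.4%) and of 5.14% of all genes, and not in that of E2f1.

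Mitosis genes were lower together with Aurka. Of 20 genes, 18 were lower and 0 higher in BTYNB than in DMSO, with a median of -0.60, and 14 were lower and 0 higher in Combi than in PD1, with a median of -0.42. Aurkb, the sister kinase of Aurka at the centromere, was 32.96 CPM in DMSO, 19.5 in BTYNB, 44.4 in PD1 and 23.7 in Combi. Ccnb1, the cyclin of mitotic entry, was 76.9, 44.9, 91.8 and 54.2 CPM. Within cycling cells 11 of the 20 were lower in BTYNB than in DMSO (median -0.33, against 12.6% of all genes). There 8 were lower in Combi than in PD1 (median -0.30, against 13.7%). These counts are from cells that were not thinned. Aurka itself turned from -0.30 to 0.04 in cycling cells for BTYNB over DMSO after thinning. Within non-cycling cells, where 10 were measured, 10 were lower in BTYNB than in DMSO (median -1.20, against 13.8%). In Combi against PD1, 2 of these 10 were lower (median -0.18, against 12.6%). The classes differed in depth between libraries, as given above, and the part of depth in these counts was not tested. The summed level of the mitosis genes in cells with 10 or more cycle UMIs was 3301 CPM in DMSO, 2713 in BTYNB, 3537 in PD1 and 2919 in Combi, and Aurka in these cells was 40.1, 31.5, 56.7 and 35.3 CPM, in the same order of libraries. In their windows 12 of 14 mitosis genes held a CCAAT box (85.7%) and 8 held TTTGAA (57.1%), as Aurka does.

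**Figure D3:**
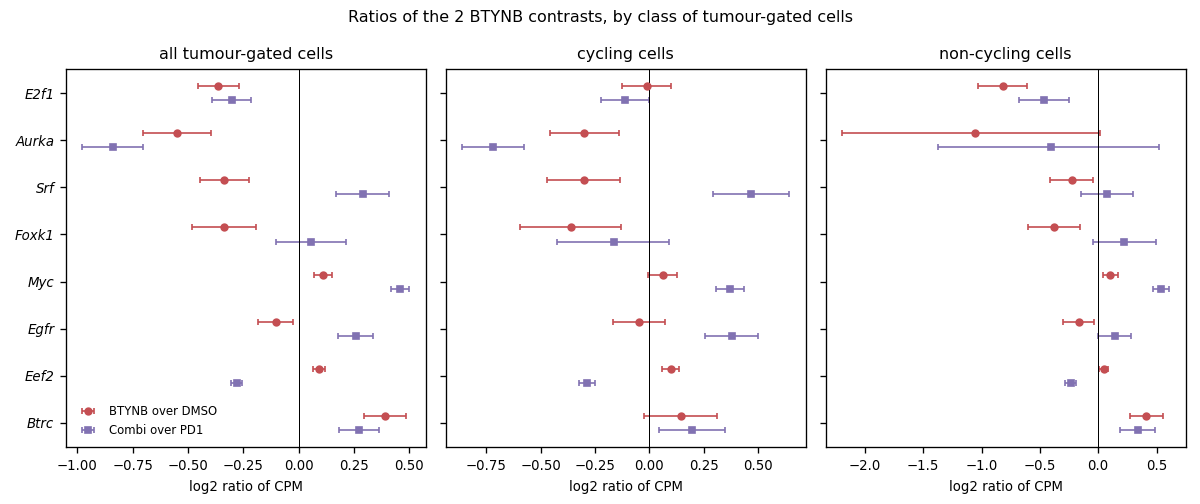
Log2 ratio of CPM with its 95% counting interval for BTYNB over DMSO (circles) and Combi over PD1 (squares) in all tumour-gated, cycling and non-cycling cells (the horizontal axes differ between panels). E2f1 is near 0 in cycling cells and at -0.82 and -0.46 in non-cycling cells, Srf lies at -0.33 and 0.29 in all cells, and Btrc is above 0 in every panel.

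Srf was at 24.2 CPM in DMSO, 19.2 in BTYNB, 16.5 in PD1 and 20.2 in Combi. DMSO stood highest and PD1 lowest, with the libraries from BTYNB-treated animals between them. The log2 ratio was -0.33 (-0.45 to -0.22) for BTYNB over DMSO and 0.29 (0.17 to 0.41) for Combi over PD1. BTYNB and Combi differed little (0.07, -0.05 to 0.20), while PD1 was below DMSO by a log2 ratio of -0.55 (-0.66 to -0.44). In cycling cells the contrasts were -0.30 (-0.77 after thinning) and 0.47, and in non-cycling cells -0.23 and 0.07. The ratio of BTYNB over DMSO was within the limit with a gate of 10 UMIs (-0.30) and with equal class weights (-0.31).

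Genes known to respond to SRF were not uniform. Of 24, 6 were lower and 6 higher in BTYNB than in DMSO (median -0.01), and 3 were lower and 11 higher in Combi than in PD1 (median 0.31). The genes higher in both contrasts were led by Fosb, an early response transcription factor, at 729 CPM in DMSO, 1181 in BTYNB, 686 in PD1 and 1027 in Combi, and by Tgfb1i1, a focal adhesion protein, at 4.48, 6.79, 4.29 and 7.92 CPM. Those lower in both were led by Fhl2, a co-factor of SRF, at 62.5, 40.8, 69.9 and 46.6 CPM, and by the tropomyosin gene Tpm2, at 130.3, 103, 195 and 124 CPM. Of the other early response genes of the list, Egr1, Egr2, Junb, Fos and Ier2 had log2 ratios of 0.50, 0.83, 0.61, 0.30 and -0.11 for BTYNB over DMSO and of 0.36, 0.56, 0.44, 0.44 and 0.30 for Combi over PD1, and are named after their values had been seen. A CArG box was found in the windows of 6 of 18 genes of the list (33.3%).

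Foxk1, a forkhead factor that favours glycolysis over autophagy, was at 14.6 CPM in DMSO, 11.5 in BTYNB, 10.02 in PD1 and 10.4 in Combi. DMSO stood highest, and the other 3 libraries lay between 10.02 and 11.5 CPM. The log2 ratio was -0.34 (-0.48 to -0.19) for BTYNB over DMSO, 0.06 (-0.10 to 0.22) for Combi over PD1 and -0.54 (-0.68 to -0.40) for PD1 over DMSO. Foxk1 was lower in BTYNB than in DMSO in cycling (-0.36) and in non-cycling cells (-0.38) alike. After thinning these ratios were -0.20 and -0.13, both within the limit. Over all tumour-gated cells the ratio was within the limit after thinning (-0.23), with a gate of 10 UMIs (-0.31) and without cells with at least 2 UMIs of Cd24a (-0.31).

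Myc was at 144 CPM in DMSO, 155 in BTYNB, 130.0 in PD1 and 179 in Combi. Both libraries with BTYNB lay above both without it, and Combi stood highest. The log2 ratio was 0.11 (0.07 to 0.15) for BTYNB over DMSO and 0.46 (0.42 to 0.50) for Combi over PD1, a fold of 1.08 and 1.38. In non-cycling cells Myc was 153 CPM in DMSO, 165 in BTYNB, 138 in PD1 and 199.9 in Combi, and in cycling cells 132, 138, 123 and 159 CPM. Its direction was the same in both classes and in both contrasts, and over all tumour-gated cells it kept that direction under each of the 9 alternatives tried.

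Few genes that respond to Myc passed the limit. Of 22, 2 were lower and 0 higher in BTYNB than in DMSO (median -0.07), where 13.1% and 12.9% of all genes were, and 2 were lower and 1 higher in Combi than in PD1 (median -0.05), where 12.5% and 19.8% were. Mybbp1a, a nucleolar protein, had log2 ratios of 0.17 and 0.32, and Ncl, the nucleolar protein nucleolin, 0.12 and 0.10. Ldha, which makes lactate in glycolysis, was 339.6 CPM in DMSO, 286 in BTYNB, 538 in PD1 and 238 in Combi, and Eif4e, the cap-binding factor, had log2 ratios of -0.11 and -0.28.

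Egfr was at 43.6 CPM in DMSO, 40.6 in BTYNB, 36.5 in PD1 and 43.6 in Combi. The libraries lay close together with PD1 lowest. On the log2 scale the ratio was -0.10 (-0.18 to -0.03) for BTYNB over DMSO and 0.26 (0.18 to 0.34) for Combi over PD1, which became 0.16 after thinning. Cycling and non-cycling cells had nearly the same level of Egfr in each library, with log2 ratios between -0.16 in PD1 and 0.11 in BTYNB.

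The ligands and feedback genes around the receptor differed more than the receptor. Of 13 measured of 17 listed, 1 was lower and 6 were higher in BTYNB than in DMSO (median 0.31), and 10 were lower and 0 higher in Combi than in PD1 (median -0.67). The medians of the 2 contrasts were 0.36 and -0.73 in cycling cells, and -0.03 and -0.32 in non-cycling cells. The ligand genes Areg and Ereg were at 2.01 and 2.17 CPM in DMSO, 3.36 and 4.06 in BTYNB, 12.0 and 10.7 in PD1, and 4.10 and 5.07 in Combi. They were highest in PD1 and were picked after their values had been seen. In PD1 Areg was 28.2 CPM in cells with at least 2 UMIs of Cd24a and 4.36 in the others, and Ereg 22.9 and 4.91. Outside such cells Combi had 3.82 CPM of Areg and 4.95 of Ereg, close to PD1. Etv5, a transcription factor induced by receptor signalling, was lower with BTYNB in both contrasts, at 47.0, 22.4, 33.2 and 20.8 CPM, and Etv4 was 39.7, 36.01, 64.4 and 34.1 CPM. Spry2, a feedback inhibitor, was 26.4, 37.5, 33.8 and 39.5 CPM, and Cbl, the ligase that takes the receptor down, had log2 ratios of 0.37 and 0.05.

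Eef2 had the most UMIs of the transcripts, at 365 CPM in DMSO, 389.6 in BTYNB, 440.0 in PD1 and 362 in Combi. PD1 stood highest, and the other 3 libraries lay between 362 and 389.6 CPM. On the log2 scale the ratio was 0.09 (0.07 to 0.12) for BTYNB over DMSO and -0.28 (-0.31 to -0.25) for Combi over PD1. The latter ranged from -0.35 with median-of-ratios scaling, beyond the limit, to -0.12 without cells with at least 2 UMIs of Cd24a. In non-cycling cells the ratios were 0.05 and -0.24 and in cycling cells 0.10 and -0.29. Of 12 elongation genes measured of 13 listed, 3 were lower and 0 higher in BTYNB than in DMSO (median -0.13), and 2 were lower and 1 higher in Combi than in PD1 (median -0.09). Eef1e1, a scaffold of the tRNA synthetase complex, was 57.6 CPM in DMSO, 35.8 in BTYNB, 47.8 in PD1 and 34.3 in Combi. Dph3, needed for the diphthamide residue of the Eef2 protein, had log2 ratios of -0.16 and -0.33, and Eef1d, a subunit of the exchange factor, 0.03 and 0.04. The window of Eef2 held an E-box (CACGTG, the element bound by Myc) 43 to 38 bases before the start, as did 4 of 10 elongation genes (40%), 6 of 17 Myc-responsive genes (35.3%) and 8.09% of all genes.

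Btrc was at 24.9 CPM in DMSO, 32.7 in BTYNB, 27.2 in PD1 and 32.9 in Combi. Both libraries with BTYNB lay above both without it. On the log2 scale the ratio was 0.39 (0.30 to 0.48) for BTYNB over DMSO and 0.27 (0.18 to 0.37) for Combi over PD1, which became 0.40 after thinning. In non-cycling cells Btrc was 30.8 CPM in DMSO, 40.9 in BTYNB, 31.6 in PD1 and 40.0 in Combi, with ratios of 0.41 (0.27 to 0.55) and 0.34 (0.19 to 0.49). In cycling cells the levels were 20.5, 22.7, 22.8 and 26.1 CPM, with ratios of 0.15 (-0.02 to 0.31) and 0.20 (0.04 to 0.35). Btrc was the only member that lay higher in non-cycling than in cycling cells by a log2 ratio of over 0.4 in each library.

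Of other genes of SCF ligases, among them further substrate receptors, 7 of 8 listed were measured. The entry not measured, Skp1a, was absent from the matrices, while Skp1 was measured. In BTYNB 1 was lower and 0 higher than in DMSO (median -0.06), and in Combi 0 were lower and 1 higher than in PD1 (median 0.14), where 12.5% to 19.8% of all genes were called in either direction. Fbxw7, another substrate receptor, was 24.9 CPM in DMSO, 28.4 in BTYNB, 26.8 in PD1 and 29.5 in Combi, and Nedd8, the modifier that activates the ligase, had log2 ratios of 0.03 and 0.12. The lower gene was Skp2, the receptor that marks cell cycle inhibitors for decay, with a log2 ratio of -0.59 (-0.70 to -0.48), and the higher gene was Fbxw11, the paralogue of Btrc, with 0.33 (0.25 to 0.42). Skp2 and Fbxw11 were chosen after their values had been seen.

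Peg10 was not measurable. Its UMIs in tumour-gated cells numbered 2 in DMSO and 0 in BTYNB, PD1 and Combi, where 3 counts would be 0.0539, 0.0411 and 0.0537 CPM. No ratio is given for it. Peg10 UMIs in other gated cells were 1 in BTYNB myeloid cells and 2 in BTYNB B cells. In these tumour cells the reported target was therefore at or under the limit of detection with and without BTYNB.

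Igf2bp1 itself was at 8.56 CPM in DMSO, 9.15 in BTYNB, 11.6 in PD1 and 11.5 in Combi, with log2 ratios of 0.10 (-0.07 to 0.27) and -0.02 (-0.17 to 0.13). Over all tumour-gated cells neither contrast differed beyond counting error. In cycling cells the ratio of BTYNB over DMSO was 0.39 (0.12 to 0.65) and that of Combi over PD1 0.02 (-0.22 to 0.25), and in non-cycling cells they were -0.05 (-0.33 to 0.23) and -0.21 (-0.46 to 0.04). BTYNB acts on the protein, which was not measured here. Its paralogue Igf2bp2 was at 23.7, 26.1, 34.1 and 28.6 CPM, with log2 ratios of 0.14 and -0.26, and Igf2bp3 lay between 1.39 and 1.74 CPM.

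Other transcripts reported as bound by Igf2bp1 did not share a direction either. Of 12 measured of 17 listed, 3 were lower and 3 higher in BTYNB than in DMSO (median -0.03), and 4 were lower and 1 higher in Combi than in PD1 (median 0.03). Lower in both was Hmga2, an oncofetal chromatin protein, at 22.1 CPM in DMSO, 11.9 in BTYNB, 179.5 in PD1 and 13.7 in Combi, and so was E2f2, a relative of E2f1, at 7.36, 5.19, 8.48 and 5.25 CPM. Higher in both were Cd274, which encodes PD-L1, at 8.44, 13.1, 17.1 and 20.5 CPM, and Pdlim7, an actin-binding protein, at 52.4, 59.1, 46.4 and 59.3 CPM. Egf, Epgn, Erbb2, Erbb4, Dph1, Igf2, Mycn, Lin28b, Gli1 and Mitf of the lists were under 5 CPM on average and were not compared.

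**Figure D4:**
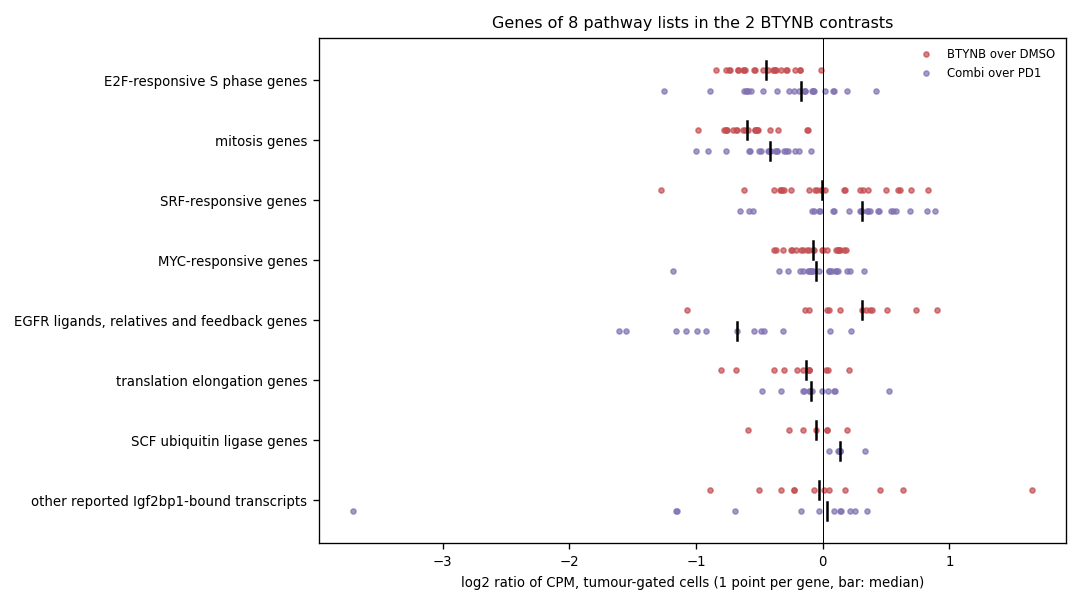
Log2 ratio of CPM in tumour-gated cells for each measured gene of 8 pathway lists, BTYNB over DMSO above and Combi over PD1 below in each row, with the median of each list as a black bar. S phase and mitosis genes lie mostly left of 0 in both contrasts (medians -0.45 and -0.60, then -0.17 and -0.42), and the EGFR list lies at opposite sides (0.31 and -0.67).

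The PD1 library held many cells with Cd24a, a surface protein by which tumour cells evade phagocytes, and several members differed in those cells. Cells with at least 2 UMIs of Cd24a made up 28.2% of tumour-gated cells in PD1 against 9.08% in DMSO, 10.2% in BTYNB and 7.16% in Combi. In these PD1 cells Eef2 was at 549.7 CPM against 388 in the others, E2f1 at 46.0 against 33.5, and Aurka at 24.2 against 17.9. Srf was at 11.9 CPM against 18.7 and Foxk1 at 6.72 against 11.6. The log2 ratios were 0.50 (0.47 to 0.54) for Eef2, 0.46 (0.35 to 0.57) for E2f1, -0.65 (-0.84 to -0.45) for Srf and -0.79 (-1.05 to -0.53) for Foxk1. Hmga2 was at 445.6 CPM in these cells and 53.3 in the others. The limit of 2 UMIs is passed more easily by deep cells, and the same cells were deeper (median 9213.5 against 7381.5 UMIs) and more often cycling (51.7% against 39.3%).

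In the other libraries the cells with at least 2 UMIs of Cd24a showed Eef2 higher as well, with log2 ratios of 0.30 in DMSO, 0.29 in BTYNB and 0.23 in Combi, and Btrc lower, with -0.34, -0.57 and -0.50. Without such cells the contrast of Combi over PD1 was 0.12 for Srf, -0.12 for Eef2, -0.19 for E2f1 and -0.69 for Aurka, against 0.29, -0.28, -0.30 and -0.84 with them. Foxk1 turned from 0.06 to -0.11, while Egfr (0.23), Btrc (0.23) and Myc (0.41) moved less. The contrast of BTYNB over DMSO became -0.35 for Srf, 0.09 for Eef2, -0.41 for E2f1, -0.53 for Aurka and -0.31 for Foxk1, the last within the limit.

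Within the classes of the cycle few members passed the limit, and a count of 1 member is near the share of all genes given beside it. Among cycling cells 1 of 8 members was lower in BTYNB than in DMSO (Foxk1) and 0 were higher, where 12.6% of 10130 genes were lower and 13% higher. In Combi against PD1, 1 was lower (Aurka) and 3 were higher (Srf, Egfr and Myc), where 13.7% and 18.9% of all genes were. The 3 higher members became 1 after thinning and 0 without cells with at least 2 UMIs of Cd24a (Srf 0.21, Egfr 0.28 and Myc 0.31). Among non-cycling cells, where 7 members were measured, 2 were lower (E2f1 and Foxk1) and 1 higher (Btrc) in BTYNB than in DMSO, against 13.8% and 10.5% of 10266 genes. In Combi against PD1, 1 was lower (E2f1) and 2 were higher (Btrc and Myc), against 12.6% and 21.4%. Without those Cd24a cells E2f1 (-0.29) and Btrc (0.28) were within the limit in that contrast, and so was Foxk1 (-0.32, just inside) in BTYNB against DMSO.

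The members also differed in how far they followed the cycle within a library. Aurka was higher in cycling than in non-cycling cells by 28.1-fold in DMSO, 47.4-fold in BTYNB, 33.04-fold in PD1 and 26.6-fold in Combi. For E2f1 these folds were 2.23, 3.89, 2.31 and 2.95, and its log2 ratio in BTYNB, 1.96 (1.78 to 2.15), lay above that in DMSO, 1.15 (1.01 to 1.30). E2f1 and Aurka were the 2 members past 2-fold in each library, where 3.93% of 10287 genes in DMSO, 5.12% in BTYNB, 3.85% in PD1 and 4.43% in Combi were. For E2f1 the log2 ratio lay under 1 in DMSO and PD1 after thinning (0.86 and 0.80) and with 10 or more cycle UMIs for a cycling cell (0.98 and 0.89). Btrc had log2 ratios of -0.58, -0.85, -0.47 and -0.61, and Myc of -0.21, -0.25, -0.16 and -0.33. Foxk1 lay between -0.50 and -0.11, Srf between -0.07 and 0.33, and Eef2 between -0.13 and 0.01.

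Myeloid cells of the same libraries, which contain little Igf2bp1, were measured as a comparison. They were gated as cells with at least 3 UMIs of Lyz2 and Csf1r together and at most 2 keratin UMIs, which held 292 cells in DMSO, 3134 in BTYNB, 384 in PD1 and 1258 in Combi. This gate had no depth minimum, and its median cell had 5344 UMIs in DMSO, 4391.5 in BTYNB, 4202.5 in PD1 and 7067 in Combi. Igf2bp1 UMIs in the myeloid-gated cells numbered 1, 11, 3 and 8. Of 8 members, 5 were lower (E2f1, Foxk1, Aurka, Egfr and Myc) and 0 higher in BTYNB than in DMSO, where 32.2% of 10042 genes were lower and 22.4% higher, and 3 were lower (Aurka, Egfr and Btrc) and 0 higher in Combi than in PD1, where 24.8% and 21.1% were. Lower in both were Aurka (log2 ratios of -1.40 and -0.71) and Egfr (-1.89 and -1.55). E2f1 was 37.8 CPM in DMSO, 21.2 in BTYNB, 27.3 in PD1 and 33.5 in Combi, with ratios of -0.83 (-1.22 to -0.43) and 0.30 (-0.15 to 0.77). Myc was 48.9, 34.3, 50.5 and 48.6 CPM and Eef2 406, 434, 409.6 and 441 CPM.

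Several values moved with the myeloid results. Of the myeloid-gated cells, 44.9% in DMSO, 8.93% in BTYNB, 32.0% in PD1 and 26.3% in Combi were cycling by the same limit. The 5 tumour markers, of which 5 had a UMI, summed to 192 CPM in DMSO, 93.9 in BTYNB, 292 in PD1 and 148 in Combi in the myeloid gate, and 4 of 5 fibroblast markers to 209.6, 9.58, 373 and 45.2 CPM. The 3 neutrophil markers summed to 406 CPM in DMSO, 1716 in BTYNB, 49.9 in PD1 and 37.1 in Combi. The level of Wt1 in the myeloid gate was 16.7% of that in the tumour gate in DMSO, 6.78% in BTYNB, 25.2% in PD1 and 9.75% in Combi. That of Egfr was 32.1%, 9.27%, 47.8% and 13.6%, in the same order of libraries. Among myeloid cells with 0 cycle UMIs, a choice made after the data had been seen, Aurka UMIs numbered 1, 32, 1 and 12, and its ratios had intervals from -1.94 to 5.99 and from -1.89 to 6.28. The part of tumour RNA and of dividing cells in the myeloid values was not tested.

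**Figure D5:**
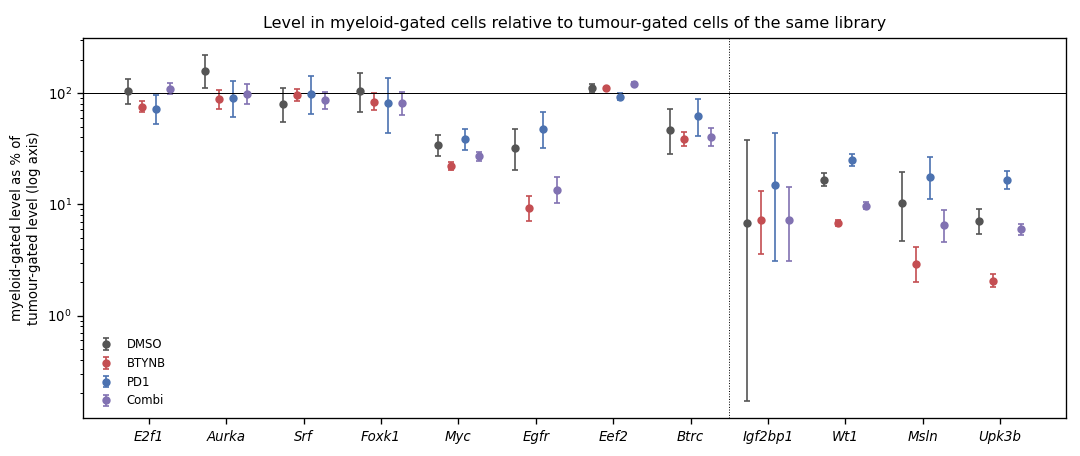
Level in myeloid-gated cells as a percentage of the level in tumour-gated cells of the same library (log axis, 95% counting intervals, line at 100%) for the 8 measurable transcripts and, right of the dotted line, Igf2bp1 and the tumour or mesothelial genes Wt1, Msln and Upk3b. Eef2 lies between 93.1% and 122%, Myc between 22.1% and 38.8%, and Egfr runs in the same order over libraries as Wt1.

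Several members were therefore at a similar level in CPM in myeloid and tumour cells. The myeloid level was 93.1% to 122% of the tumour level for Eef2, 79.5% to 98.5% for Srf, 80.8% to 104% for Foxk1 and 72.7% to 110% for E2f1. It was 22.1% to 38.8% for Myc and 38.8% to 61.8% for Btrc. Lymphoid gates held over 50 cells only in BTYNB and Combi, and these gates differed in size and depth. The T or NK gate held 2113 cells in BTYNB (median 2313 UMIs) and 64 in Combi (median 6551 UMIs). The B gate held 3190 cells in BTYNB (median 1834.5 UMIs) and 71 in Combi (median 5916 UMIs). In T or NK cells Eef2 was at 1007 CPM in BTYNB and 688 in Combi and Myc at 94.8 and 97.0, and in B cells Eef2 was at 708 and 799 CPM and Btrc at 34.4 and 37.7. E2f1 in BTYNB was 18.2 CPM in T or NK and 5.31 in B cells.

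For each member the genes with the most similar level over 8 points (cycling and non-cycling cells of 4 libraries) were taken from 12568 genes, as a Pearson correlation of log2(CPM + 1). The points share libraries and depth, and with so few points high values are common. For E2f1 these were Uhrf1 (0.999), Timeless (0.999) and Nrm (0.997), and for Aurka Prr11, Sgo1 (both 0.999) and Anln (0.998), although Aurka had as few as 12 UMIs in a point. For Btrc they were Micu3 (0.993), Gnb3 and Fbxl12, and for Myc Dis3l2 (0.987), Jmjd1c and Zfpm2. Eef2 was nearest to Krt18 (0.992), Srpr and Enpp1, and Egfr to Snhg4 (0.989), Plpp1 and Eif1b. Srf was nearest to Slc35b4 (0.976), Mecr and Cuta, and Foxk1 to Dmd (0.978), Tmem63b and Dlst.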

How the data were processed

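Cells of malignant ascites were captured on the BD Rhapsody platform, and 1 library was made for each of the 4 treatments from pooled animals. The matrices deposited by the authors hold raw UMI counts per gene and cell, made with the BD Rhapsody pipeline, and the submitters' processing notes name the build GRCm39. Of 46342 deposited cells, those with under 200 genes or over 33% mitochondrial UMIs were left out, as in the study. The tumour gate required 0 Ptprc UMIs, which need not remove every doublet with a leukocyte, and no doublet caller was run.

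UMIs were summed over the gated cells of a library and divided by the total of those cells (CPM, with exact 95% Poisson intervals). Ratios carry exact 95% Clopper-Pearson intervals from the counts. Genes with a mean of at least 5 CPM in a class were compared, and a difference of over 0.32 in log2 ratio (2-fold between cycling and non-cycling cells) was counted. With 1 library per group no test was made, and intervals cover counting error only. The summing and interval code was checked on simulated counts. Python 3.11.15, numpy 2.4.6, scipy 1.17.1 and matplotlib 3.10.9 were used.

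The transcripts and lists were chosen with earlier results of these data known. Of each list, up to 2 genes furthest above and up to 2 furthest below 1 in both contrasts (by the smaller absolute log2 ratio) are named, and for each transcript the 3 genes with the most similar level among those with at least 20 UMIs in each point. The levels in cells with Cd24a and 2 myeloid alternatives were added after the data had been seen.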

Additional observations from a re-analysis of the deposited data

Results flagged for a closer look

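The ratios with and without anti-PD-1 lay on opposite sides of 0 for several transcripts, with intervals that excluded 0. In each case the difference was not tested, because each group is 1 library. Srf had a log2 ratio of -0.33 for BTYNB over DMSO and 0.29 for Combi over PD1 in all tumour-gated cells, and -0.30 and 0.47 in cycling cells. Egfr had -0.10 and 0.26 in all tumour-gated cells. Eef2 had 0.093 and -0.28 in all tumour-gated cells, 0.10 and -0.29 in cycling cells and 0.046 and -0.24 in non-cycling cells. In these cases the PD1 library held the lowest level of Srf and Egfr and the highest of Eef2. It also held the most cells with at least 2 UMIs of Cd24a (28.2%), and without them the ratio of Combi over PD1 over all tumour-gated cells was 0.12 for Srf, 0.23 for Egfr and -0.12 for Eef2.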

How the results depend on the processing

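No paired analysis was possible because each group is 1 library. Of the ratios of single transcripts under the alternatives, 437 moved by less than the counting interval, 38 moved beyond it, and 5 with an interval that excluded 0 changed direction. Another 15 values with an interval that included 0 also changed sign, among them E2f1 for BTYNB over DMSO in cycling cells (0.31 after thinning and 0.20 with at least 10 cycle UMIs) and Foxk1 for Combi over PD1 in all tumour-gated cells (-0.11 without Cd24a cells). The 5 were, in cycling cells, Aurka (0.044) and Eef2 (-0.019) for BTYNB over DMSO after thinning and E2f1 for Combi over PD1 with at least 10 cycle UMIs (0.20), and Aurka in myeloid cells with 0 cycle UMIs (0.64 and 0.86), an alternative chosen after seeing the data. The cause was not tested, and Aurka had 1 UMI in that class in DMSO and 1 in PD1. Counts of members past the limit moved as follows. In all tumour-gated cells, the 4 members lower in BTYNB than in DMSO were 2 with a gate of 10 UMIs, 2 after thinning and 1 with equal class weights. The 1 lower in Combi than in PD1 was 2 after thinning, 2 without the deepest 5% of cells, 3 with median-of-ratios scaling and 2 as a mean over cells, and the 1 higher was 2 with a gate of 10, after thinning and as a mean over cells. In cycling cells, the 1 lower in BTYNB than in DMSO was 2 with a gate of 10, 2 as a mean over cells and 3 at 10 or more cycle UMIs. The 1 lower in Combi than in PD1 was 2 with median-of-ratios scaling, without Cd24a cells and at 10 or more cycle UMIs, and the 3 higher were 1 after thinning and 0 without Cd24a cells. In non-cycling cells, the 2 lower in BTYNB than in DMSO were 1 after thinning and without Cd24a cells. The 1 lower in Combi than in PD1 was 0 without Cd24a cells, and the 2 higher were 1 without a depth minimum, with median-of-ratios scaling and without Cd24a cells. In myeloid cells, the 5 lower in BTYNB than in DMSO were 3 with 0 cycle UMIs, and the 0 higher were 2 with 0 cycle UMIs and 1 with 0 Wt1 UMIs (both added after seeing the data). The 0 higher in Combi than in PD1 were 3 with the depth minimum of the tumour gate and 2 with 0 cycle UMIs.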

Other observations

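H19, an imprinted non-coding RNA that Igf2bp1 is reported to bind, was at 4.13 CPM in DMSO, 13.0 in BTYNB, 5.68 in PD1 and 2.56 in Combi in tumour-gated cells, with log2 ratios of 1.65 (1.45 to 1.85) for BTYNB over DMSO and -1.15 (-1.43 to -0.87) for Combi over PD1. Cd44, a hyaluronan receptor also reported as bound, was at 193.5 CPM in DMSO, 166 in BTYNB, 368 in PD1 and 165 in Combi. Both were chosen after their values had been seen.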
